A study of Mus musculus with 10 samples.

Results

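Respiratory chain genes of mouse spermatogonial stem cells and of the testicular cells they came from were followed through the start of culture. The set holds 107 of the 21969 genes in the matrix, taken by name: Nduf, Sdh, Uqcr, Cox4 to Cox8, Atp5 and mt- genes. Of these, 38 encode subunits of complex I or are named like them, 8 are Ndufaf assembly factors of complex I, 4 belong to complex II, 8 to complex III, 18 to complex IV and 18 to complex V, which makes 94 nuclear genes, and 13 are encoded by mitochondrial DNA. All came from DBA/2 mice, and the series asks about PD-L1 in these stem cells. Week 1, week 2 and week 3 cultures and the established GS cells (2 libraries each) grew in an Iscove's-based medium with human FGF2 at 10 ng/ml, rat GDNF at 15 ng/ml and 1% fetal bovine serum. Week 0 (2 libraries) stands for adult testicular cells sorted on magnetic beads for the surface protein CD9 and not yet cultured. Feeder cells, the number of animals, and the age and number of GS cell lines are not mentioned in the labels used here, nor is it said whether both libraries of a group share an animal or a culture. The p-values therefore rest on the spread among these libraries, which may be technical.

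Electrons from nutrients enter the chain at complex I, which oxidizes NADH, or at complex II, which oxidizes succinate. They pass through ubiquinone to complex III, through cytochrome c to complex IV, cytochrome c oxidase, and on to oxygen, and the proton gradient this builds drives complex V, the ATP synthase. Mitochondrial DNA encodes a few core subunits of complexes I, III, IV and V, transcribed as long joint RNAs, and the nucleus encodes the rest. Male germ cells are known for swapping several ubiquitous proteins of energy metabolism for testis isoforms in meiosis and spermatid development, among them the complex IV subunits Cox6b2, Cox7b2 and Cox8c, cytochrome c (Cyct) and pyruvate dehydrogenase (Pdha2).

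Levels are FPKM, fragment counts relative to the length of the transcript and the size of the library. The steps between low values put the depth at an estimated 10340000 to 20550000 reads per library. If the values were rescaled between libraries, which is not stated, this is a scaled depth and not a count of reads sequenced. Across genes, r between replicate libraries was 0.987 to 0.993. Differences are log2 fold changes on the log2(FPKM + 1) scale, which understates changes of low genes. They come from 1 limma fit over the 15671 genes that reached 1 FPKM in 2 or more of the libraries. A gene is called higher or lower at a Benjamini-Hochberg adjusted p under 0.05 over all these genes. Of the 107 members, 105 passed the filter; Cox8b was listed at 0 in all 10 libraries, and Cox6a2 reached at most 1.01 FPKM. An exact test of 2 libraries against 2 cannot go below p = 0.33, so single comparisons rest on this fit. The label of week 0 names stem cells, yet the summed FPKM of 12 spermatid markers (protamines and others) was 25573 and 27398 before culture, 179 and 169 after 1 week, and at most 11.5 in every later library. The sum of 12 markers of undifferentiated spermatogonia was 405 and 389 FPKM before culture, 698 and 712 after 1 week, and 1105 to 1235 in the later groups. In bulk RNA, fewer cells of a type and less RNA per cell cannot be told apart.

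Cox8c and Cox6b2 were the most abundant nuclear complex IV genes at week 0, and by week 1 they and Cox7b2 had given way to their ubiquitous counterparts. Cox6b2 (ENSMUSG00000051811.14, chr7:4751792-4753094, minus strand, GRCm38) encodes the testis form of a subunit at the face of the enzyme that meets cytochrome c. It measured 935 and 808 FPKM before culture, 48.3 and 49.7 after 1 week, 13.0 and 13.3 after 2 weeks, 13.8 and 16.0 after 3 weeks and 16.0 and 14.5 in GS cells. No week 0 value came near any later one, and week 1 still lay above all later libraries. It fell by 4.12 ± 0.10 (SE; adjusted p = 4.51e-09, limma) at week 1 against week 0 and by a further 1.82 ± 0.10 (adjusted p = 4.77e-06) at week 2 against week 1. Its ubiquitous counterpart Cox6b1 (chr7:30616861-30626151) measured 215 and 254 FPKM in the week 0 libraries, 1197 and 1047 in those of week 1, 709 and 672 in those of week 2, 624 and 613 in those of week 3 and 842 and 788 in GS cells. It rose by 2.25 ± 0.10 (adjusted p = 1.25e-07) at week 1, which was 4.78-fold. The 2 genes together summed to 1245 and 1097 FPKM at week 1 and to 1150 and 1063 FPKM at week 0, so the sums of the pair overlapped between the groups while its composition changed.

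Cox8c (ENSMUSG00000043319.5, chr12:102899316-102900526, plus strand), the testis form of a small membrane subunit, fell most of all members. It measured 997 and 1005 FPKM before culture, 6.76 and 9.05 after 1 week, 16.8 and 15.1 after 2 weeks, 6.43 and 9.28 after 3 weeks and 9.98 and 7.65 in GS cells. The fall at week 1 was 127-fold (log2 fold change -6.83 ± 0.19, adjusted p = 8.17e-09). The low remainder moved again: it rose by 0.94 (adjusted p = 0.00359) at week 2 and fell by 0.95 (adjusted p = 0.0108) at week 3, a call lost without the first week 2 library (adjusted p = 0.0675) or the first week 3 library (adjusted p = 0.0594). Cox8a, the ubiquitous form, measured 100.3 and 119.8 FPKM at week 0, 451.7 and 388.9 at week 1, and between 352.5 and 462.2 in every later library. It rose by 1.93 ± 0.12 (adjusted p = 7.86e-07) at week 1. Unlike the Cox6b pair, this pair summed to less at week 1, 458 and 398 FPKM against 1097 and 1125 at week 0; these sums carry no test.

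Cox7b2 (ENSMUSG00000049387.10, chr5:71442824-71548205, minus strand) had the highest level of the 3 testis isoforms from week 2 on. It measured 239 and 183 FPKM in the week 0 libraries, 55.0 and 35.6 in those of week 1, 54.3 and 52.6 in those of week 2, 46.4 and 51.5 in those of week 3 and 77.8 and 87.3 in GS cells. It fell by 2.21 ± 0.20 (adjusted p = 1.11e-05) at week 1. GS cells lay above both week 3 libraries (log2 fold change 0.74, adjusted p = 0.0324), a call lost without either of the week 3 or GS cell libraries (adjusted p = 0.0806 to 0.139) and, narrowly, without either week 2 library (0.0521). Its counterpart Cox7b, on the X chromosome, measured 16.4 and 24.3 FPKM before culture, 384 and 235 after 1 week, 133 and 111.5 after 2 weeks, 132 and 74.0 after 3 weeks and 191 and 129 in GS cells. It was the member with the steepest rise among those detected in all libraries, 15.2-fold (log2 fold change 3.85 ± 0.35, adjusted p = 1.09e-05). Its replicates spread more than those of Cox6b1, and its fall of 1.29 at week 2 (adjusted p = 0.0129) was not called without the first week 1 library (0.0867) or the second week 2 library (0.068).

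As a share of the summed FPKM of its pair, each testis isoform held a minority in every cultured library and most of the signal at week 0. Cox6b2 held 81.3% and 76.1% of the Cox6b pair at week 0, 3.88% and 4.53% at week 1, and at most 2.54% later. Cox8c held 90.9% and 89.3% of its pair with Cox8a before culture, 1.48% and 2.27% after 1 week, and at most 4.5% later. Cox7b2 held 93.6% and 88.3% of its pair with Cox7b at week 0 and 12.5% and 13.1% at week 1, and its share then stood at 29.0% and 32.1% after 2 weeks, 26.0% and 41.0% after 3 weeks and 28.9% and 40.3% in GS cells. Shares were tested over all 5 groups by an exact permutation test over all ways to split the 10 libraries into pairs, adjusted over 10 isoform pairs. The adjusted p was 0.0106 for Cox6b2 and 0.0227 for both Cox8c and Cox7b2, where the smallest unadjusted value such a test can give is 0.00106. Without the second week 1 library the Cox7b2 value was 0.0514. The steps from group to group in the shares were not tested.

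Beside these falls, all 12 spermatid markers and 10 of 12 spermatocyte markers fell at week 1. The spermatocyte sum was 247 and 195 FPKM at week 1 against 5808 and 5416 at week 0, and none of its 12 markers rose. Markers of Leydig cells summed to 74.6 and 81.3 FPKM at week 1, against 1753 and 1511 at week 0, and those of Sertoli cells to 261 and 263 FPKM, against 433 and 430. The part of these cells in the isoform falls was not tested. In GS cells, where Cox7b2 measured 77.8 and 87.3 FPKM, the 12 spermatocyte markers summed to 334 and 349 FPKM and the 12 spermatid markers to 7.0 and 9.02 FPKM, with Prm1, Prm2, Tnp2, Acrv1, Spem1, Gapdhs and Catsper1 at 0 in both libraries.

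**Figure D1:**
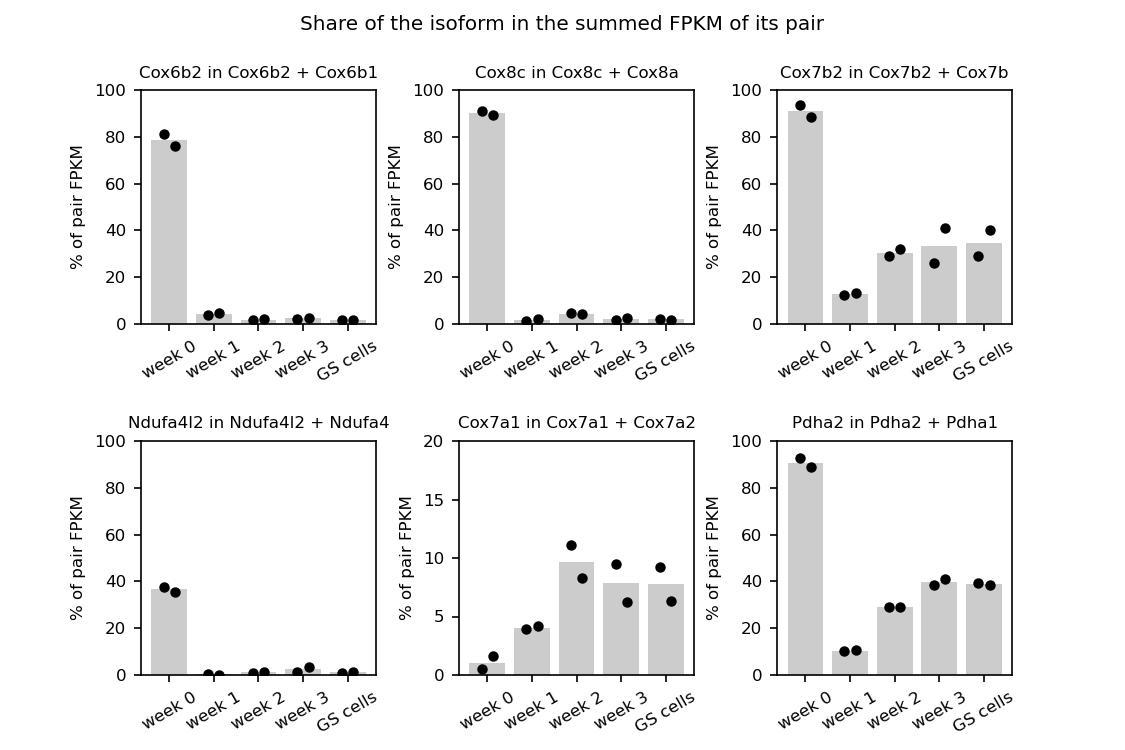
Share of each isoform in the summed FPKM of its pair (%, y axis; 0 to 20% for Cox7a1 and 0 to 100% for the others) by group, from week 0 to GS cells. Points are libraries and bars are group means; Cox6b2, Cox8c and Cox7b2 stood at 41.0% or less in all cultured libraries and at 76.1% or more at week 0.

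The promoters of both testis isoforms with an entry and of 3 ubiquitous complex IV genes are shown because the members of the pairs moved in opposite directions at week 1; Cox6a1 is added as a ubiquitous gene that holds both cores. Each is the 250 bases upstream of the start in the RefSeq table (build GRCm38.p6), on the strand of the gene: Cox6b2 at chr7:4753095-4753344, Cox6b1 at chr7:30626115-30626364 and Cox7b2 at chr5:71548206-71548455 on the minus strand, Cox7b at chrX:106015450-106015699 on the plus strand, and Cox6a1 at chr5:115348959-115349208 on the minus strand. Capitals mark matches, on either strand, to the cores GCATGCGC (bound by NRF1) and CCGGAAG (bound by ETS factors such as GABPA), both known regulators of nuclear respiratory genes.
Cox6b2: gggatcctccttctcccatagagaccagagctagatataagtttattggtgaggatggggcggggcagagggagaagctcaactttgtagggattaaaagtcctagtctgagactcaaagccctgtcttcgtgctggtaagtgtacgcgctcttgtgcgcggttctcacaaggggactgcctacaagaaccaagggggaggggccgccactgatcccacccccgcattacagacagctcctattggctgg
Cox6b1: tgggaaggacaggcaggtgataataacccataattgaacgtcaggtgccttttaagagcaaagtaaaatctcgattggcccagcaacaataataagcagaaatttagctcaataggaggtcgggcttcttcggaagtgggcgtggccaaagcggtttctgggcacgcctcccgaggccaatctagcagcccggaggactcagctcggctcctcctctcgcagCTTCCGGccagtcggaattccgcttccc
Cox7b2: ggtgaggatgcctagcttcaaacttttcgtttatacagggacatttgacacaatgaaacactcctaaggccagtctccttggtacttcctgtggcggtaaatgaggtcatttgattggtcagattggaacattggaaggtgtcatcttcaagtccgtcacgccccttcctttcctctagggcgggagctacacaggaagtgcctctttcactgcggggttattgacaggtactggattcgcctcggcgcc
Cox7b: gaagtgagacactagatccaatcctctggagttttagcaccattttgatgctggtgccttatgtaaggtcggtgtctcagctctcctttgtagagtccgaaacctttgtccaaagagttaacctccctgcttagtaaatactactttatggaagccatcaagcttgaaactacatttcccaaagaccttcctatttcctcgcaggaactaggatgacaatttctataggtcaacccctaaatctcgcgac
Cox6a1: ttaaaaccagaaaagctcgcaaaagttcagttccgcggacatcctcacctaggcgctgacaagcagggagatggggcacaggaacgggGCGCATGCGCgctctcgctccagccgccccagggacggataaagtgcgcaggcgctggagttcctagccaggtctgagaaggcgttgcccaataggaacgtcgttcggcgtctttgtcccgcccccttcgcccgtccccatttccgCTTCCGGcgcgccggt
Cox6a1 holds the NRF1 core on both strands, 162 and 160 bases before the start in an overlapping palindrome, and an ETS core 16 bases before it. Cox6b1 holds an ETS core 28 bases before the start. The other 3 windows hold neither core, nor AAGATGGC (YY1) or TGACGTCA (the CRE element). The same is true of windows not shown: Cox8a, the partner of Cox8c, and the ubiquitous Cox5a, Cox5b, Cox7a2 and Cox7c. Cox6a1 was picked for its cores, so the windows shown do not compare ubiquitous with testis genes. The GENCODE genes of Cox6b1 and Cox6a1 begin upstream of the RefSeq start, and the ETS cores of both lie within them. For Cox7b2, the last 30 bases of the entry, which follow the start, were not found in a GENCODE transcript of the gene. They were found for the other windows shown, so the Cox7b2 start is less certain. Windows were found for 74 of the 94 nuclear members. The NRF1 core is in 11.4% of the 79 member windows, against 2.26% of all 32851 windows in the table; the ETS core is in 17.7% against 6.91%, the CRE element in 5.06% against 1.55% and the YY1 core in 1.27% against 1.56%. Member windows also have a median of 14 CpG, against 6 in all windows, and 56.4% GC, against 52.4%, so they differ in base composition too. A match of letters is a description of these windows and not of binding.

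The other tissue isoforms went their own ways. Ndufa4l2, known elsewhere as a gene induced by low oxygen, measured 49.0 and 43.2 FPKM in the week 0 libraries, 2.72 and 0.0856 in those of week 1, 2.19 and 2.65 in those of week 2, 2.31 and 8.20 in those of week 3 and 2.13 and 3.39 in GS cells. It fell by 4.55 ± 0.60 (adjusted p = 0.000139) at week 1. Its relative Ndufa4, named after complex I but now assigned to complex IV, measured 81.1 and 78.2 FPKM before culture, 468 and 432 after 1 week, 221 and 206 after 2 weeks, 188 and 221 after 3 weeks and 215 and 231 in GS cells. It rose by 2.48 ± 0.09 (adjusted p = 4.43e-08) at week 1 and fell by 1.07 (adjusted p = 3.86e-05) at week 2. Ndufa4l2 held at most 3.58% of the pair in any cultured library, against 37.6% and 35.6% at week 0 (adjusted p = 0.0227, exact permutation test; 0.0514 without the first week 2 library and 0.0576 without the second week 1 library). Cox7a1, the form of heart and skeletal muscle, stood higher in culture: 2.52 and 7.42 FPKM in the week 0 libraries, 11.9 and 12.8 in those of week 1, 33.4 and 23.2 in those of week 2, 24.1 and 17.4 in those of week 3 and 29.3 and 19.5 in GS cells. In GS cells it was 2.197 above week 0 (adjusted p = 0.000874) and held 9.24% and 6.36% of the pair with the ubiquitous Cox7a2, against 0.543% and 1.59% at week 0 (adjusted p over all groups 0.0291, exact permutation test; up to 0.0929 and not below 0.05 without any 1 of the week 0 or week 1 libraries or the first week 2 library).

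The single steps of Cox7a1 were less firm. Its rise at week 1 (1.29, adjusted p = 0.0153) was 0.66 without the first week 0 library (adjusted p = 0.0816) and was not called without the second week 1 library (1.24, 0.0619). Its rise at week 2 (1.12, adjusted p = 0.0409) was not called without any 1 of the libraries of week 1, 2 or 3 (adjusted p = 0.0506 to 0.191). Cox7a2 measured 292 and 293 FPKM at week 1, against 461 and 459 at week 0, and fell by 0.65 (adjusted p = 4.47e-05). Skeletal and heart muscle markers summed to 5.68 to 12.0 FPKM in the cultured libraries and to 65.0 and 73.9 FPKM at week 0. Cox6a2, the muscle form of Cox6a, held 0% and 0.0424% of its pair at week 0, 0.22% and 0.163% at week 3 and at most 0.102% in the other groups (adjusted p = 0.0317, exact permutation test), at levels of 1.01 FPKM or less. That call was lost when any of several single libraries was left out. Cox4i2, the lung form of Cox4, measured 0.570 to 1.67 FPKM and was called in no comparison.

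Outside complex IV, the testis forms of neighbouring steps gave a less uniform picture. Pdha2, the germ cell subunit of pyruvate dehydrogenase, fell by 3.38 (adjusted p = 5.19e-09) at week 1, to 7.41 and 6.98 FPKM, against 87.1 and 80.9 at week 0. It then rose by 0.92 at week 2 (adjusted p = 6.18e-05). Its share of the pair with Pdha1 was 92.9% and 88.7% at week 0, 10.2% and 10.7% at week 1, and 28.9% to 41.0% in the later groups (adjusted p = 0.0106, exact permutation test). Cyct, the testis cytochrome c, held 36.1% to 52.6% of its pair with Cycs in the cultured libraries, against 87.3% and 81.3% at week 0 (adjusted p = 0.0132, exact permutation test). Slc25a31, the germ cell ADP/ATP carrier, instead stood higher in culture: 49.2 and 46.1 FPKM before culture, 77.8 and 70.6 after 1 week, 113 and 113 after 2 weeks, 164 and 144 after 3 weeks and 153 and 147 in GS cells. Its rise in GS cells against week 0 was 1.64 (adjusted p = 3.6e-07). Its share of the pair with Slc25a4 was 62.5% and 54.6% before culture, 31.7% and 31.3% after 1 week, and 72.0% to 83.3% in the later groups (adjusted p = 0.0106, exact permutation test).

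Mitochondrially encoded transcripts rose at week 1. Of the 13 mt- genes, 12 were called higher and none lower at week 1 against week 0, at an adjusted or an unadjusted p under 0.05 in limma; over all genes tested, 36.3% were called higher and 44.0% lower. The 6 genes above 100 FPKM in every library, mt-Cytb, mt-Co1, mt-Nd1, mt-Nd2, mt-Nd4 and mt-Nd5, had a median log2 fold change of 2.65, against -0.14 over all genes. mt-Cytb, the core of complex III and the member with the highest mean level, measured 1332 and 1293 FPKM in the week 0 libraries, 9502 and 9387 in those of week 1, 5536 and 5230 in those of week 2, 4457 and 5497 in those of week 3 and 5036 and 5807 in GS cells. Its rise at week 1 was 7.2-fold (2.85 ± 0.12, adjusted p = 7.16e-08). mt-Nd2, a membrane subunit of complex I, measured 435 and 377 FPKM before culture, 4066 and 3706 after 1 week, 1504 and 1370 after 2 weeks, 1238 and 1309 after 3 weeks and 1232 and 1492 in GS cells. That was a 9.57-fold rise (3.26 ± 0.12, adjusted p = 3.41e-08), the steepest of the 6. mt-Co1, the catalytic core of complex IV, rose least of the 6, 3.44-fold (1.78 ± 0.12, adjusted p = 2.05e-06), to 6938 and 7099 FPKM, against 2127 and 1951 at week 0.

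**Figure D2:**
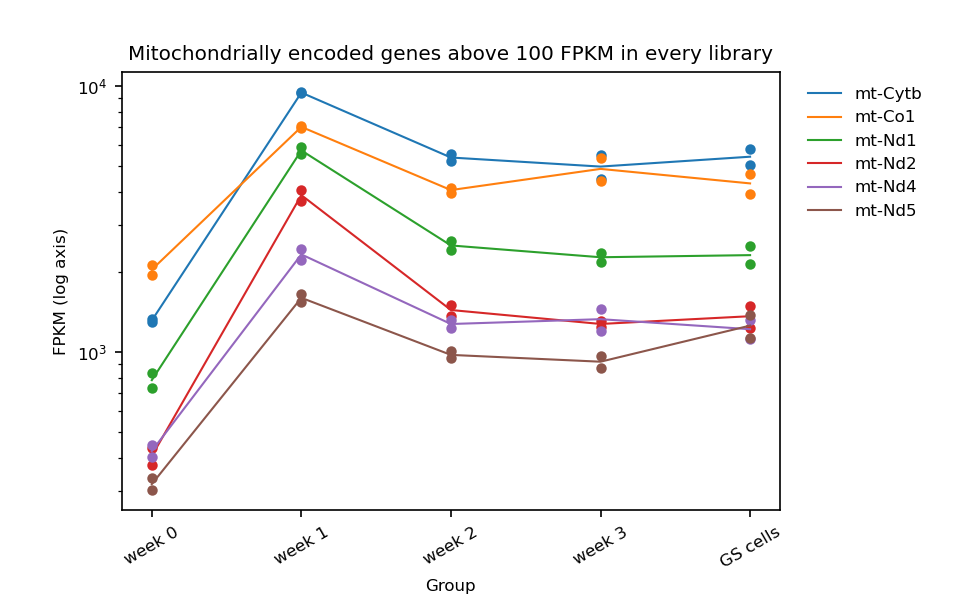
FPKM (y axis, log scale) of the 6 mitochondrially encoded genes above 100 FPKM in every library, by group from week 0 to GS cells. Points are libraries and lines join group means; all 6 peaked at week 1, where mt-Cytb stood at 9502 and 9387 FPKM, and stayed above week 0 in every later library.

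The rises were unequal enough to change the shares of mt- genes in their summed FPKM as listed. Genes with near-identical transcripts, described below, leave the levels of mt-Co1 and several others uncertain. These shares may therefore differ from those in mitochondrial RNA. mt-Co1 made up 22.8% and 23.9% of the summed mt- FPKM at week 1, against 38.5% in both week 0 libraries, and mt-Nd2 made up 13.3% and 12.5%, against 7.87% and 7.42%. mt-Nd4 held 7.99% and 7.46%, against 8.04% and 7.93%. Summed as listed, the mt- genes took 4.19% and 4.20% of the summed FPKM of a library at week 1, against 0.642% and 0.598% at week 0. Later shares were 2.79% and 2.63% after 2 weeks, 2.45% and 2.87% after 3 weeks and 2.34% and 2.89% in GS cells. Set against the summed FPKM of the 94 nuclear members, the mt- sum was 1.51 and 1.60 times as large at week 1, 0.285 and 0.261 times at week 0, and 0.768 to 1.12 times in the later groups.

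At week 2, 9 of the 13 mt- genes were called lower than at week 1 and none higher, also at an unadjusted p, against 28.2% higher and 27.4% lower over all genes. The median of the 13 was -0.83, against 0.03 over all genes. mt-Nd1 measured 2612 and 2415 FPKM at week 2, against 5878 and 5567 at week 1 (-1.19, adjusted p = 4.45e-05), and mt-Nd2 fell by 1.44 (adjusted p = 2.79e-05). Scaling libraries to a common sum left 8 of the 9 called. Quantile normalization left 3; it set mt-Co1 and mt-Cytb to 0.0, and mt-Nd1 (-0.25), mt-Nd4 (-0.11), mt-Nd5 (-0.13) and mt-Co3 (-0.61) were not called. No mt- gene was called at week 3 against week 2, and 1 was lower at an unadjusted p under 0.05. In GS cells against week 3, mt-Nd5 and mt-Atp8 were called higher and none lower. mt-Nd5 measured 1131 and 1380 FPKM in GS cells, against 873 and 964 at week 3 (0.45, adjusted p = 0.0236; 0.115 without the first week 3 library and 0.101 without the second GS cell library). The call was also lost under quantile normalization (0.145), with a common sum without mt- genes (0.0505) and with only these groups fitted (0.0645). Against week 0, GS cells had 11 mt- genes called higher and none lower (34.7% and 45.9% over all genes), with a median of 1.65 for the 6 abundant ones.

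The other 7 mt- genes measured at most 60 FPKM in every library. Other genes with transcripts at least 95% identical over at least 80% of their length exist in GENCODE for mt-Atp6, mt-Co1, mt-Co2, mt-Co3, mt-Nd3 and mt-Nd4l, and for Ndufaf2 among the nuclear members, so reads of these could have been divided or set aside, and their levels are uncertain. mt-Co2 measured 24.9 and 23.9 FPKM at week 1, against 4.401 and 2.79 at week 0, and mt-Nd6, the light-strand gene, measured 52.8 and 42.7 FPKM, against 12.2 and 9.95. mt-Atp8 was listed at 0 in both week 0 libraries and at 11.1 and 13.6 FPKM after 1 week, 3.99 and 2.299 after 2 weeks, 2.13 and 1.64 after 3 weeks and 5.87 and 4.93 in GS cells. Its higher level in GS cells than at week 3 (1.15, adjusted p = 0.00746) was not called without the first GS cell library (1.05, 0.0508). mt-Atp6 (7.74 and 6.41 FPKM at week 1, against 1.81 and 0.824 at week 0) was called higher at week 1, as was mt-Co3 (5.65 and 6.03 FPKM, against 2.32 and 0.543; 1.60, or 1.04 without the second week 0 library). The week 1 call of mt-Nd3, listed at 0 in the first week 0 library, was lost without that library (adjusted p = 0.232), without the first week 2 library (0.0511) or without either GS cell library (0.0622 and 0.0621), and the fall of mt-Co3 at week 2 (-0.97, adjusted p = 0.0346) without either week 1 library or the first week 2 library (0.0911 to 0.172). mt-Co3 was 0.83 higher in GS cells than at week 0 (adjusted p = 0.0448), but 0.27 without the second week 0 library, and its call was lost with any library left out but the first of week 0 (adjusted p = 0.0501 to 0.325). mt-Nd4l, at 3.14 FPKM or less, was called in no comparison.

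Week 1 also held the most fibroblast and matrix RNA: its 12 markers summed to 7487 and 7437 FPKM at week 1, against 673 and 818 at week 0, and to 785 and 824 at week 2. All 12 rose at week 1 and all 12 fell at week 2. Smooth muscle markers summed to 729 and 881 FPKM at week 0, 1166 and 1118 at week 1, and 71.8 and 63.0 at week 2. Of these 5 markers, 2 rose and 2 fell at week 1 (median -0.75), and all 5 fell at week 2. The part of these cells in the mt- peak was not tested. In GS cells the 12 fibroblast and matrix markers summed to 699 and 675 FPKM, against 673 and 818 at week 0; 6 of them were called higher and 4 lower.

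Among nuclear members, week 1 brought changes in both directions, counted here by complex. Of the 92 tested, 39 (42.4%) were called higher and 32 (34.8%) lower at week 1 against week 0. Over all genes tested, 36.3% were called higher and 44.0% lower. With the mt- genes the count was 51 higher and 32 lower of 105. Their median log2 fold change was 0.22, against -0.14 over all genes. The balance moved with the scaling of libraries, whose summed FPKM was 727209 and 707638 at week 1 and 860429 and 848311 at week 0. Over all members, quantile normalization gave 71 higher and 17 lower, a common sum 65 and 20, and a common sum without mt- genes 67 and 17. Shares over all genes moved as well, to 49.6% higher and 33.3% lower, 41.0% and 38.7%, and 42.2% and 37.7%. The median of all genes was then 0.38, 0.08 and 0.12, and the median of the members exceeded it by 0.24, 0.39 and 0.39, against 0.35 as deposited. Of the 83 calls, 67 held under all 3 scalings, and 11 genes, all of them called lower as deposited, changed sign under at least 1 of them.

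**Figure D3:**
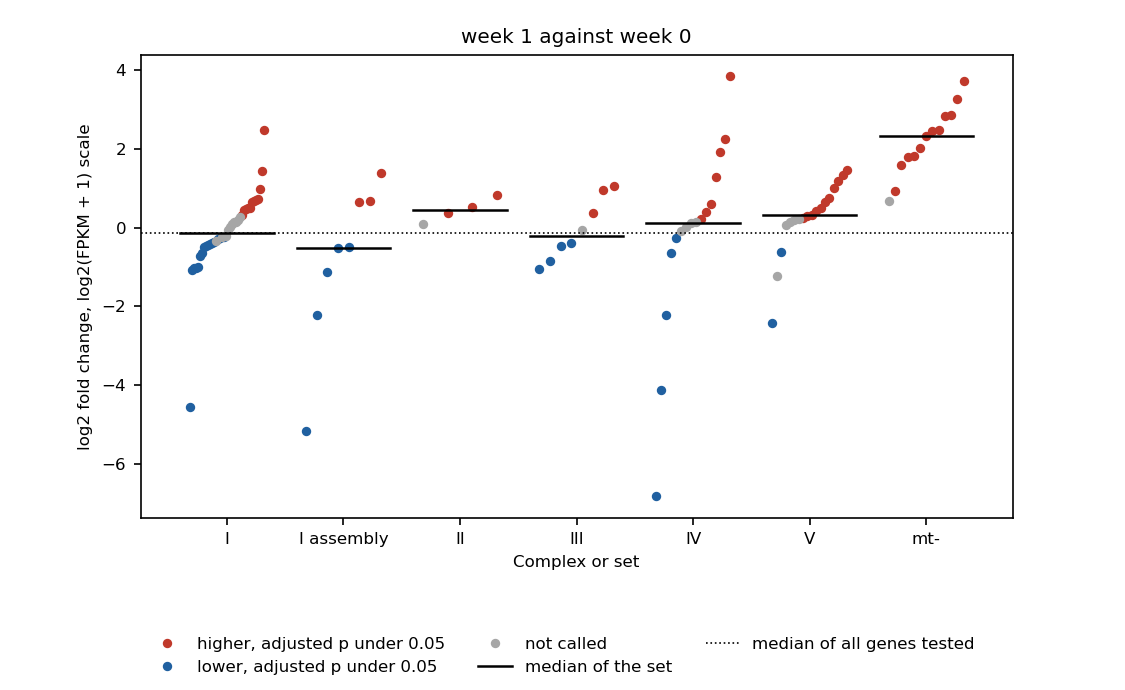
Log2 fold change of each member at week 1 against week 0 (y axis, log2(FPKM + 1) scale) by complex. Coloured points passed the test, grey points did not, bars are medians of the sets and the dotted line is the median of all genes tested (-0.14); the mt- genes have the highest median, and the 3 complex IV testis isoforms lie below the rest of their complex. mt-Atp8, listed at 0 at week 0, is drawn at its fitted value, which is no measure of fold.

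Complex V had more rises than falls at week 1 under every scaling run. Of its 18 genes 11 rose and 2 fell at week 1, with a median of 0.31, and 14 or 15 were called higher under each other scaling. Atp5l (subunit g of the membrane part) measured 217 and 174 FPKM at week 1, against 64.2 and 74.6 at week 0 (1.48 ± 0.14, adjusted p = 1.29e-05). Atp5g3, 1 of 3 genes of the c ring, measured 325 and 322 FPKM, against 130 and 127 (1.33 ± 0.09, adjusted p = 1.99e-06). The stalk subunit Atp5f1 measured 207 and 183 FPKM, against 91.2 and 78.7 (1.19, adjusted p = 1.86e-05). In each of these genes both week 1 libraries lay above both week 0 libraries. The other c ring genes, Atp5g1 (0.66) and Atp5g2 (0.77), rose less. Of the subunits of the catalytic head, Atp5b, at 1104 and 1017 FPKM at week 1 and 1014 and 1019 at week 0, was not called, and Atp5a1 rose by 0.30 (adjusted p = 0.0126; 0.052 without the first week 0 library and 0.0871 without the first week 1 library). Atp5s, a coupling factor, went against its complex, to 14.1 and 6.12 FPKM, against 58.2 and 51.2 at week 0 (-2.42 ± 0.39, adjusted p = 0.000466), as did the stalk subunit Atp5j (-0.62, adjusted p = 0.0051), whose call was lost with a common sum without mt- genes (-0.31, 0.0559).

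Complex I was mixed, with 12 genes higher and 16 lower of 38 and a median of -0.14 as deposited. This lean turned with the scaling: 22 higher and 6 lower, 18 and 9, and 19 and 7 under the other scalings in the order above. Shares over all genes moved the same way. They were 36.3% higher and 44.0% lower as deposited, then 49.6% and 33.3%, 41.0% and 38.7%, and 42.2% and 37.7%. Falls that held under all of them included Ndufv2 of the NADH-oxidizing core, at 99.6 and 87.4 FPKM, against 202 and 182 at week 0 (-1.03 ± 0.10, adjusted p = 1.28e-05), and the accessory subunits Ndufb7 (-1.07 ± 0.06, adjusted p = 7.28e-07), Ndufa12 (-1.02) and Ndufb5 (-0.997). Ndufb7 measured 86.5 and 85.2 FPKM, against 181 in both week 0 libraries. Rises included the accessory subunits Ndufb11, at 73.0 and 76.4 FPKM, against 24.6 and 29.7 at week 0 (1.43, adjusted p = 5.96e-06), and Ndufa1, at 190 and 149 FPKM, against 80.7 and 87.9 (0.99, adjusted p = 0.00018). Of the 7 core subunits 1 rose (Ndufs8, 0.51) and 4 fell, and of 29 accessory subunits 10 rose and 11 fell. Ndufa7, at 391 to 547 FPKM the nuclear complex I gene with the highest mean over all libraries, was called lower (-0.23, adjusted p = 0.0127), but its sign turned to 0.03 and 0.08 with a common sum, and the call was lost without the second week 0 or the second week 1 library (adjusted p = 0.0859 and 0.0646).

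The Ndufaf assembly factors changed in both directions, some of them by large amounts. Ndufaf3, needed for an early step of complex I assembly, was the most abundant of them at week 0, at 394 and 404 FPKM, and measured 7.06 and 14.5 after 1 week, 7.23 and 9.13 after 2 weeks, 4.11 and 5.43 after 3 weeks and 9.03 and 6.60 in GS cells. It fell 37.0-fold (-5.16 ± 0.29, adjusted p = 5.77e-07), in the range of the testis isoforms; the gene overlaps Impdh2 on the opposite strand by 48 bases. Ndufaf8 fell by 2.22 (adjusted p = 3.93e-07), to 38.6 and 32.5 FPKM, against 179 and 159 at week 0, and Ndufaf7 by 1.13. Ndufaf4 rose by 1.39 (adjusted p = 0.000339), to 21.7 and 13.4 FPKM, against 5.40 and 6.48. In all, 3 of 8 rose and 5 fell, or 3 and 3 under each other scaling.

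Complexes II and III and the ubiquitous part of complex IV were also read by subunit. In complex II, 3 of 4 rose: the membrane anchor Sdhc (244 and 241 FPKM, against 132 and 143 at week 0; 0.82, adjusted p = 6.37e-06), the flavoprotein Sdha (0.51) and the anchor Sdhd (0.38). In complex III, 3 rose and 4 fell of 8, beside 36.3% higher and 44.0% lower over all genes. This lean turned with the scaling. Quantile normalization gave 5 higher and 2 lower, a common sum 3 and 2, and a common sum without mt- genes 4 and 2. Uqcrh, the hinge protein and the nuclear complex III gene with the highest mean over all libraries, rose by 0.95 (523 and 519 FPKM, against 267 and 272; adjusted p = 3.99e-06) and Uqcrb by 1.06, while Uqcrq fell by 1.04 (439 and 352 FPKM, against 786 and 830; adjusted p = 0.000111) and the core protein Uqcrc1 by 0.84. Of 10 ubiquitous complex IV subunits 5 rose, led by Cox7b, Cox6b1 and Cox8a, and 2 fell. Cox6a1 rose by 0.39 (adjusted p = 0.00709; 0.31 and 0.0513 without the first week 1 library), and Cox4i1, at 704 to 1007 FPKM the nuclear complex IV gene with the highest mean over all libraries, was not called (0.11, adjusted p = 0.227).

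Summed over its members, complex V took 0.786% and 0.740% of the FPKM of a library at week 1, against 0.523% in both week 0 libraries, and complex II 0.095% and 0.097%, against 0.054% and 0.059%. Complex IV took 0.719% and 0.663%, against 0.627% and 0.636%. These shares carry no test.

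**Figure D4:**
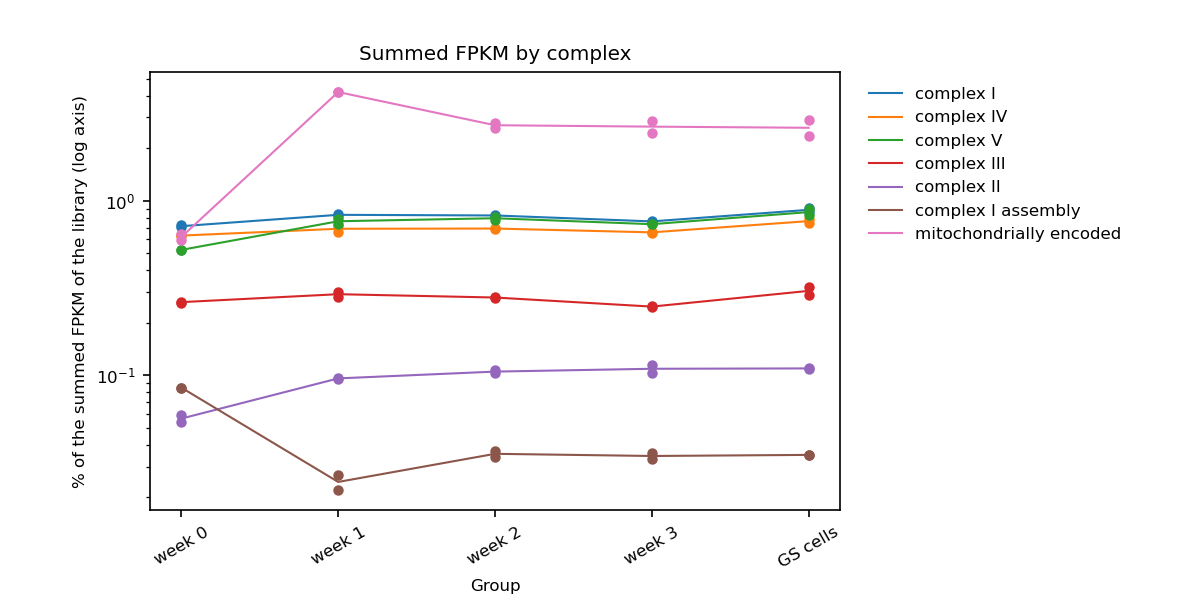
Summed FPKM of each complex or set as a percentage of the summed FPKM of the library (y axis, log scale), by group from week 0 to GS cells. Points are libraries and lines join group means; the mt- genes stood at 4.19% and 4.20% at week 1 against 0.642% and 0.598% at week 0, while the assembly factors stood at 0.027% and 0.022% against 0.085% in both.

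At week 2 against week 1, more members were called lower than higher: 8 higher and 49 lower of 105, with a median of -0.28, against 28.2% higher and 27.4% lower over all genes and a median of 0.03. Complex I had 3 higher and 18 lower, complex III 0 and 5 (the same at an unadjusted p under 0.05 in limma) and complex V 1 and 10. As at week 1, the split moved with the scaling, to 23 higher and 27 lower under quantile normalization, 25 and 26 with a common sum and 24 and 27 without mt- genes in it. Members then had a median of -0.03, 0.02 and 0.00, below the median of all genes (0.17, 0.25 and 0.24) by 0.20 to 0.23. Of the 57 calls, 25 held under all 3. Among these were the falls of Ndufa12 (41.2 and 47.9 FPKM, against 114 and 93.0 at week 1; -1.19), Ndufa1 (-1.18), Ndufb4 (-0.97), Ndufa6 (-0.94) and Uqcr10 (-0.74), all small accessory subunits. Uqcrh (-0.40, adjusted p = 0.00193) was not called under any of them and turned to 0.11 under quantile normalization.

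The 8 members that rose at week 2 were Ndufv1, Ndufs8, Ndufa11, Ndufaf6, Ndufaf8, Atp5g1, Cox7a1 and Cox8c. Ndufv1, which binds NADH, measured 218 and 211 FPKM, against 155 and 138 at week 1 (0.55, adjusted p = 0.00315). Ndufs8, an iron-sulphur subunit of the same arm, measured 113 in both libraries, against 79.6 and 80.5 (0.49). The calls of Ndufa11 (0.33) and Atp5g1 (0.30) were lost without the second week 1 library, the second week 2 library and 1 other library each (adjusted p = 0.0532 to 0.15). Ndufv1 and Ndufs8 lay above their week 1 libraries while the membrane-arm subunits mt-Nd1, mt-Nd2, mt-Nd4 and mt-Nd5 fell, of which mt-Nd2 alone was also called under quantile normalization. Ndufaf8 rose by 0.80 (adjusted p = 0.000696), and Ndufaf6 by 0.83 (adjusted p = 0.0183; 0.1 without the second week 1 library and 0.101 without the second week 2 library).

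Few members differed at week 3 from week 2. Of 105 members 2 were called higher and 10 lower, beside 10.6% higher and 10.7% lower over all genes, and their median was -0.11 against 0.00 over all genes. The largest falls in complex V were those of Atp5k (subunit e; 139 and 123 FPKM, against 210 and 225 at week 2; -0.73, adjusted p = 0.00578) and Atp5h (subunit d; 167 and 184 FPKM, against 294 and 264; -0.67, adjusted p = 0.00302). Both were called with any 1 library left out, as was Ndufb7 (-0.37). The other 9 calls each needed particular libraries. Uqcrq (-0.49, adjusted p = 0.034) was lost without any 1 of the week 2 or week 3 libraries (0.0932 to 0.141). The rise of Sdha (0.51, adjusted p = 0.0264; 226 and 303 FPKM, against 185 and 182) was lost without either week 2 library (0.0995 and 0.115) and was 0.30 without the second week 3 library (0.0801). Ndufaf5 (0.40, adjusted p = 0.0389) was lost with any library of week 0, week 2, week 3 or GS cells left out (0.0518 to 0.181).

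All members called in GS cells against week 3 were higher in GS cells. Of 105 members 29 were called higher and none lower, against 11.7% higher and 10.8% lower over all genes; at an unadjusted p under 0.05 in limma the counts were 48 and 2. The median was 0.23, against -0.01 over all genes. Other scalings gave 22 to 27 higher and 1 or 2 lower. By complex, 12 of 38 genes of complex I rose, 0 of 8 assembly factors (1 higher and 1 lower at an unadjusted p under 0.05 in limma), 1 of 4 of complex II, 4 of 8 of complex III, 3 of 16 of complex IV and 7 of 18 of complex V. Fibroblast and matrix markers summed to 699 and 675 FPKM in GS cells, against 370 and 719 at week 3, and 4 of the 12 rose; their part in the rises was not tested. The count rests on few libraries: it was 10 without the first GS cell library, and 13 and 16 without the first and the second week 3 library, and 9 of the 29 were called with any 1 library left out.

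After mt-Atp8 (1.15), the largest rises were those of Atp5k, Atp5j and Ndufb4. Atp5k measured 317 and 243 FPKM in GS cells, against 139 and 123 at week 3 (1.08 ± 0.13, adjusted p = 0.00115). Atp5j measured 528 and 376 FPKM, against 205 and 244 (0.99 ± 0.15, adjusted p = 0.00352), and the gene overlaps Gabpa on the opposite strand by 701 bases. Ndufb4, a membrane-arm subunit of complex I, measured 76.7 and 83.0 FPKM, against 36.7 and 46.6 (0.93 ± 0.11, adjusted p = 0.00128). In each, both GS cell libraries lay above both week 3 libraries, and each was called with any 1 library left out. Atp5o, a stalk subunit, rose by 0.63 (533 and 525 FPKM, against 331 and 350), Ndufa12 by 0.88, Ndufv3 by 0.86, Ndufc1 by 0.81 and Ndufb7 by 0.71. Of 29 accessory subunits of complex I, 11 rose, and of 7 core subunits 1 did; these were not compared by a test. Cox6b1 (0.40, adjusted p = 0.0254) was not called without any 1 of the week 3 or GS cell libraries (0.0595 to 0.118), nor was Sdhc (0.32, adjusted p = 0.0135) without either week 3 library or the first GS cell library (0.0547 to 0.0748), Uqcrq (0.55) without the same 3 (0.0709 to 0.113), or Ndufa7 (0.24) without either library of week 2 or week 3 or the first GS cell library (0.0718 to 0.161). Quantile normalization also removed the calls of Cox6b1, Sdhc and Ndufa7. Of the 10 members that fell at week 3, Atp5k, Atp5h, Atp5g2, Cox5a, Ndufb6, Ndufb7, Ndufs3 and Uqcrq were called higher in GS cells; both comparisons share the week 3 libraries, and of these 8 genes Atp5k and Ndufb7 were called in both with any 1 library left out.

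**Figure D5:**
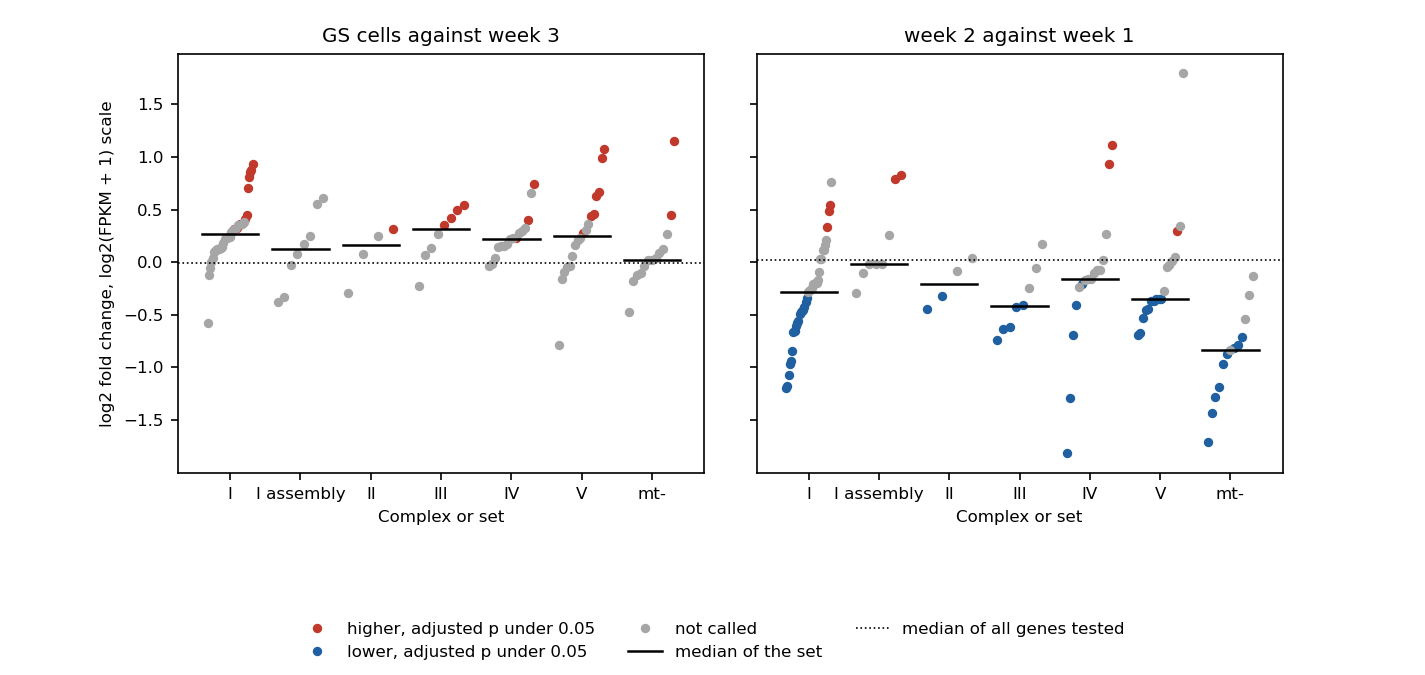
Log2 fold changes of members (y axis, log2(FPKM + 1) scale) by complex, for GS cells against week 3 on the left and week 2 against week 1 on the right. Coloured points passed the test, bars are medians of the sets and dotted lines are medians of all genes tested; 29 members were called higher and none lower on the left, and 8 higher and 49 lower on the right.

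GS cells were also set against week 0, a comparison that shares the week 0 libraries with that of week 1. Of 105 members 46 were called higher and 35 lower, against 34.7% higher and 45.9% lower over all genes, with a median of 0.18 against -0.21. Under the other scalings the counts were 67 higher and 15 lower, 65 and 18, and 66 and 17. Over all genes the shares were then 51.3% higher and 32.7% lower, 44.1% and 37.5%, and 44.5% and 37.0%. The median of all genes was 0.45, 0.17 and 0.19. The members with the largest rises were Cox7b (2.92, adjusted p = 6.46e-05), mt-Atp8, Cox7a1 and mt-Cytb (2.04, adjusted p = 5.65e-07). The largest falls were those of Cox8c (-6.68), Cox6b2 (-5.74), Ndufaf3 (-5.52) and Ndufa4l2 (-3.66), each with an adjusted p of at most 0.000522, and Cox7b2 stayed lower by 1.33 (adjusted p = 0.000286). Atp5s went against its complex here too (-2.12, adjusted p = 0.00102). Cox4i1 was called higher in this comparison alone, at 1007 and 966 FPKM, against 704 and 777 at week 0 (0.41, adjusted p = 0.000979).

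Over all 5 groups, 97 of the 105 members differed by the F test of the fit, beside 93.8% of all genes. The 8 that were not called were Atp5b, Cox5b, Cox4i2, Ndufc2, Ndufs7, Ndufaf1, mt-Nd4l and a second Atp5o entry. Atp5b, the catalytic subunit of the ATP synthase and the most abundant nuclear member, measured 947 to 1162 FPKM in all 10 libraries. Cox5b measured 311 to 450 FPKM and Ndufs7 64.6 to 98.7. The second Atp5o entry (ENSMUSG00000116933.1) overlaps Donson, Cryzl1 and the first Atp5o on the same strand, so its values are uncertain.

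Genes that serve the chain from outside the set were counted by list, beside 36.3% higher and 44.0% lower over all genes at week 1, and 28.2% and 27.4% at week 2. Of 10 carriers and coupling proteins, 8 rose and 1 fell at week 1, and 1 rose and 9 fell at week 2: Slc25a4, the heart-type ADP/ATP carrier, rose by 2.23 (adjusted p = 4.48e-07) at week 1, and Ucp2, an uncoupling protein, fell by 3.30 (adjusted p = 1.74e-06) at week 2. Of 17 genes of mitochondrial DNA upkeep and transcription, 8 rose and 7 fell at week 1. Ssbp1, which coats single-stranded mitochondrial DNA, rose by 1.61 (adjusted p = 2.3e-07). Tfam, which packs mitochondrial DNA and starts its transcription, fell by 1.52 (adjusted p = 1.87e-06), to 50.2 and 45.9 FPKM, against 146 and 133 at week 0, and the polymerase Polg by 1.53 (adjusted p = 3.25e-05). At week 2, 7 of these 17 rose, led by Mgme1 (0.90), and 1 fell, the RNA-binding protein Slirp (-1.01).

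Among 6 tested regulators of respiratory genes, 2 rose and 1 fell at week 1, 4 rose and none fell at week 2 (limma; also 4 and none at an unadjusted p under 0.05), and Ppargc1a did not pass the filter. Nrf1 rose by 1.143 at week 2 (adjusted p = 1.45e-05). GS cells against week 3 gave 1 rise among the 6, Gabpa, and 1 fall, Ppargc1b. Gabpa, whose protein binds the ETS core, measured 108 and 107 FPKM in GS cells, against 54.9 and 59.8 at week 3 (0.90, adjusted p = 0.00113). The gene overlaps Atp5j, which also rose in this comparison, by 701 bases on the opposite strand. Reads of that stretch could have counted toward either gene. The part of Gabpa in the rises of members was not tested. Of 36 assembly factors outside the rule 14 rose and 12 fell at week 1, led by Ttc19 (1.41) and Lyrm7 (-2.29), both of complex III, and Cox20 of complex IV fell by 1.83 at week 2. At week 2, 7 of these 36 rose, led by Coa7, and 9 fell. GS cells against week 3 gave 5 rises and 6 falls among them, beside 11.7% higher and 10.8% lower over all genes. Cox17, a copper chaperone of complex IV, rose most (1.41), and Sco2 fell most. Of 13 electron carriers and ubiquinone enzymes 4 rose and 6 fell at week 1, with Cycs at 1.36 and Coq4 at -2.66, and of 17 genes of pyruvate dehydrogenase and the citric acid cycle 8 rose and 6 fell, with Pdha1 at 2.75 and Pdha2 at -3.38.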

How the data were processed

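RNA of 10 libraries was read as 1 matrix of FPKM per gene, deposited by the authors. Per the submitters' processing notes, the tools, in no set order, were Cufflinks 2.2.1, Cuffdiff, HISAT2 2.1.0, Bowtie2 2.3.4.1, cutadapt 1.16 and bcl2fastq 2.17.1.14, and the mouse build was mm10; no source used here names the annotation release or the scaling between libraries. Gene IDs were looked up in GENCODE M21 (21951 of 21969 found, all 107 members with the same symbol). Groups were taken from the labels. Depth is not stated: it was estimated from the steps between low values of 2268 genes with a lone transcript of at least 1500 nucleotides, with a fragment length of 200 assumed, and 95.6% to 98.79% of low values were whole within 0.15 read.

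Genes that reached 1 FPKM in 2 or more of the libraries were fitted on log2(FPKM + 1) over all 5 groups with limma 3.58.1 (R 4.3.3; empirical Bayes with an intensity trend; 5 residual degrees of freedom), tested beforehand on simulated data. Benjamini-Hochberg adjustment ran over all 15671 genes at 0.05. Isoform shares were compared by an exact permutation test. Near-identical transcripts were sought with blastn 2.17.0. Alternatives were other scalings, a pseudocount of 0.1, no filter, no trend, only the groups compared, a replicate block and leaving out each library. Named were all tissue isoforms with counterparts, the mt- genes, per comparison the 4 largest rises and 4 largest falls, the highest gene of each complex, and up to 3 called members that went against their complex; from the outside lists, mainly the largest rise and fall. Further members were named as examples after their values were seen. Members and lists were chosen with earlier results of these data known.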

Additional observations from a re-analysis of the deposited data

How the results depend on the processing

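Counts of members moved with the scaling between libraries and, in GS cells against week 3, more with single libraries. Under quantile normalization, a common sum, and a common sum without mt- genes, those called lower at week 1 were 17, 20 and 17, and their median was 0.619, 0.466 and 0.518. At week 2 the counts were 23, 25 and 24 higher and 27, 26 and 27 lower, with medians of -0.03, 0.022 and 0.002. At week 3, 16, 16 and 17 were lower, beside 10.9%, 11.6% and 11.6% of all genes. In GS cells 1, 2 and 2 were lower than at week 3, and 15, 18 and 17 lower than at week 0, with medians of 0.720, 0.660 and 0.689 against week 0. Ndufa7 at week 1 reversed to 0.025 and 0.078 with a common sum, with and without mt- genes, and Uqcrh at week 2 to 0.11 under quantile normalization. Relative to the sum of nuclear members, the log2 ratio of the mt- sum was 2.513 at week 1 against week 0, -0.234 in GS cells against week 3 and 1.702 in GS cells against week 0.

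Leaving out 1 library at a time gave 4 to 9 members higher and 38 to 51 lower at week 2 (median -0.362 to -0.282), 0 to 2 higher and 3 to 12 lower at week 3, and 10 to 33 higher and 0 to 1 lower in GS cells against week 3. Counts at week 1 ran from 42 to 52 higher and 27 to 33 lower. Adjusted p-values of the isoform shares ran from 0.0079 to 0.0212 for Cox6b2, 0.0151 to 0.0296 for Cox8c, 0.0141 to 0.0514 for Cox7b2, 0.00705 to 0.0576 for Ndufa4l2, 0.0225 to 0.0929 for Cox7a1 and 0.019 to 0.0776 for Cox6a2. Fitting only the groups compared left 1 member higher at week 3 and 1 lower in GS cells against week 3. Of 109 results on named genes, 32 lost their call under at least 1 alternative and 2 reversed.

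Same-numbered libraries did not deviate together (correlations -0.053 to 0.046). A shared animal or culture need not leave such a trace, so this cannot tell whether the numbers pair them. With a replicate block the counts were 48 higher and 31 lower in week 1, 7 higher and 50 lower in week 2, 1 higher and 11 lower in week 3, 30 higher and 0 lower in GS cells against week 3, and 43 higher and 36 lower in GS cells against week 0. With 2 libraries a group, small changes and genes near 1 FPKM are the least certain. The cause of these shifts was not tested.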

Other observations

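All 3 X-linked members, Cox7b, Ndufa1 and Ndufb11, were called higher at week 1 than at week 0; they were grouped by chromosome after their values were seen. Over all genes tested, 333 of 646 X-linked genes (51.5%) were called higher at week 1 and 211 (32.7%) lower, with a median log2 fold change of 0.55. Of 14993 autosomal genes 5328 (35.5%) were called higher and 6679 (44.5%) lower, with a median of -0.16. In GS cells against week 0, 308 X-linked genes (47.7%) were called higher and 239 (37.0%) lower. The autosomal counts were 5108 (34.1%) higher and 6953 (46.4%) lower. Ndufa1 was called lower in GS cells than at week 0 (-0.45, adjusted p = 0.0154, limma). Its value turned to 0.03 under quantile normalization, 0.03 with a common sum and 0.06 with a common sum without mt- genes. The difference between the chromosome classes was not tested.

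Members were also counted by the letters in their promoter windows, with no test. Of the 9 member genes with the NRF1 core, 5 were called higher and none lower at week 1 against week 0, 1 higher and 4 lower in week 2, none higher and 3 lower in week 3, 3 higher and none lower in GS cells against week 3, and 5 and 2 in GS cells against week 0. Of the 14 with the ETS core, 9 were called higher and 4 lower at week 1, 1 higher and 9 lower in week 2. None were higher and 4 lower in week 3. GS cells had 10 higher and none lower against week 3, and 5 and 5 against week 0. Over all genes, 11.7% were called higher and 10.8% lower in GS cells against week 3. Atp5e, Atp5h, Atp5l, Cox6b1, Ndufb6, Ndufs3 and Uqcr11, all with the ETS core, each lost that call without at least 1 single library. Atp5j, also with this core, overlaps Gabpa. For all 74 members with a window, 32 were higher and 25 lower at week 1, 6 higher and 33 lower in week 2, 2 higher and 8 lower in week 3, 23 higher and none lower in GS cells against week 3, and 26 and 27 in GS cells against week 0.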
